A study of Mus musculus with 40 samples.

Results

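The genes described here are the nuclear-encoded subunits of the mitochondrial respiratory chain and of ATP synthase, in subcutaneous CT26 tumors of BALB/c mice. They were taken from the gene count table by symbol: rows starting with Nduf, Sdha, Sdhb, Sdhc, Sdhd, Uqcr, Cox4i, Cox5, Cox6, Cox7, Cox8 or Atp5, without the assembly factors (Ndufaf and Sdhaf, 11 rows) and without 6 rows marked -ps. The rule used no measured value and gave 85 genes of the 54087 rows, of which 83 were among the 14760 genes that passed the filter on low counts. By role, 36 belonged to complex I, 4 to complex II, 8 to complex III, 11 to complex IV and 15 to complex V. A further 8 were isoforms known from particular tissues, of which 6 passed the filter, and 3 were other genes of the same name stems (Atp5s, Atp5sl and Cox7a2l).

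CT26 is a mouse colon carcinoma line that grows in syngeneic BALB/c mice. Mice of 6 to 12 weeks of age received 1000000 CT26 cells under the skin, were given monoclonal antibodies (mAbs) intraperitoneally on days 6, 9 and 12, and gave their tumor on day 13 for bulk RNA sequencing. There were 8 groups of 5 mice, 40 in all. The isotype group received motavizumab as mIgG2a, and 4 groups received a single mAb: anti-GARP:TGF-β1 (clone 58A2) as mIgG2a WT (GARP WT), the same clone as FcD (GARP FcD), which lacks binding to Fcγ receptors, anti-TGF-β (clone 1D11), or anti-PD-1 FcS, whose Fc part is silent. The last 3 groups received anti-PD-1 FcS together with a second mAb and are called the WT combination, the FcD combination (each with the anti-GARP:TGF-β1 mAb of that form) and the anti-TGF-β combination. GARP is a surface protein that anchors latent TGF-β1 on activated regulatory T cells, and clone 1D11 recognises the active cytokine. A tumor fragment holds cancer cells, leukocytes, stroma and whatever tissue came with it, so in these bulk values fewer cells of a type and less RNA per cell cannot be told apart.

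Complexes I to IV pass electrons from NADH and succinate to oxygen in the inner mitochondrial membrane, complexes I, III and IV pump protons across it, and complex V (ATP synthase) uses the returning protons to make ATP. Complexes I, III, IV and V each combine subunits encoded in the nucleus with a few encoded by mitochondrial DNA, while complex II, which is also an enzyme of the tricarboxylic acid cycle, is encoded wholly in the nucleus. Many of the nuclear promoters carry sites for NRF1, ETS factors of the GABP (NRF-2) type and YY1, and some subunits of complexes I and IV exist as isoforms made mainly in muscle, fat, lung, testis or hypoxic cells.

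Of the 85 genes, 70 had a promoter in the RefSeq table (build GRCm38.p6, 250 bases before to 50 after the start). Promoters are shown because they differ between the broadly made subunits and a fat-type isoform whose levels followed another tissue in these tumors. On both strands, the letters GCATGCGC (core of the NRF1 motif) stood in 10 of 70 promoters (14.3%, against 3.05% of 27025 genes), CCGGAAGT (ETS) in 5 (7.14% against 4.31%), AAGATGGCG (YY1) in 8 (11.4% against 1.64%) and the TATA box, spelled TATAAA, in 7 (10% against 15.7%). No letters of different motifs overlapped in these promoters. A match is a description of letters, not of binding. The 4 sequences below run from 200 bases before to 30 after the start, 230 bases each, all on the minus strand, with matched letters in capitals. Ndufv2 had the smallest p of the 85 genes across the 8 groups and lies at chr17:66101530-66101759 with 34 CpG and no match. Cox6a1 lies at chr5:115348929-115349158 with 26 CpG, and its capitals span overlapping NRF1 letters on both strands. Uqcr11 lies at chr10:80406792-80407021 with 14 CpG, the ETS letters and then the NRF1 letters. Cox8b, the heart, muscle and brown fat isoform of Cox8, lies at chr7:140900417-140900646 with 1 CpG and the TATA letters near the start.
Ndufv2: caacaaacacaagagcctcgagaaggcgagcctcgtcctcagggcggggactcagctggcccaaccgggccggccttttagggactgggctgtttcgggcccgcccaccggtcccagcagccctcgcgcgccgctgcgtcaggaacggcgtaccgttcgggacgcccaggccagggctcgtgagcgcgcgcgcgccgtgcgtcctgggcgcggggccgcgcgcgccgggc
Cox6a1: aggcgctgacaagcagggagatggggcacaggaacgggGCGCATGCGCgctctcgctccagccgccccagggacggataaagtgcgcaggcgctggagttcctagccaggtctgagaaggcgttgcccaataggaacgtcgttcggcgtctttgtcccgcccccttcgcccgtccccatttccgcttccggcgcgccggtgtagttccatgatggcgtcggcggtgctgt
Uqcr11: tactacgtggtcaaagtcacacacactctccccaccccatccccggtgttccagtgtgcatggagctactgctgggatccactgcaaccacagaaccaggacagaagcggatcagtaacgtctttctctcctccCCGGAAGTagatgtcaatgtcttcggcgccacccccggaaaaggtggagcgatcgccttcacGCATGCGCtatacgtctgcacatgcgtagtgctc
Cox8b: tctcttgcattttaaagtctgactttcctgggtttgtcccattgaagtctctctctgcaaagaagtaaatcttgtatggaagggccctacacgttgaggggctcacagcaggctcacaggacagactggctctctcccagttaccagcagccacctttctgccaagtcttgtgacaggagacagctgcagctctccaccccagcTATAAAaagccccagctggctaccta

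Total counts per mouse ran from 11931730 to 20680548 with a median of 14030511, and the 85 genes took between 0.851% and 1.38% of them. Library numbers in the labels split the mice: numbers 41 to 60 held 0 to 6 counts of Xist and 91 to 428 of the Y-linked Ddx3y, and numbers 61 to 80 held 784 to 12701 of Xist and 0 of Ddx3y. The labels give neither sex nor batch, every group held mice from both ranges, and what else separated the ranges cannot be told apart, so differences are given within each range where they bear on a result. Mice are named here by library number.

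Levels per kilobase of exon (mean CPM per kb over 40 mice, where CPM is counts per 1000000 counts of the library) placed the catalytic ATP synthase subunit Atp5b first in complex V at 433, with the membrane subunit Atp5l last at 11.1. Exon length was that of all annotated exons of a gene merged, which can exceed any single transcript. Atp5l had 6443 bases by this measure, and by mean CPM alone it stood at 71.7, above Atp5o at 33.1. In complex I the accessory subunit Ndufa2 was highest at 255 CPM per kb and Ndufb2 lowest at 1.09. Complex II was the most even, from the membrane anchor Sdhd at 102 CPM per kb, through the iron-sulfur subunit Sdhb at 57.2 and the flavoprotein Sdha at 50.2, to the other anchor Sdhc at 37.7. In complex III, Uqcr10 stood at 156 CPM per kb, above the core protein Uqcrc1, and in complex IV, Cox8a stood at 395 and Cox6c at 50.9.

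In each isoform pair the broadly made form was far higher per kilobase. Cox4i1 stood at 304 CPM per kb against 2.37 for Cox4i2, the lung form. Cox6a1 stood at 315 against 4.73 for Cox6a2 of heart and muscle, Cox7a2 at 95.7 against 3.56 for Cox7a1 of the same tissues, and Cox8a at 395 against 0.993 for Cox8b. Cox6b1 stood at 271 against 0.180 for Cox6b2 of testis, Cox7b at 121 against 7.07 for Cox7b2, and Ndufa4, a complex IV subunit despite its name, at 93.9 against 2.72 for Ndufa4l2, a hypoxia-induced paralog. Cox8c, another testis form, had 0 counts in all 40 mice.

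**Figure D1:**
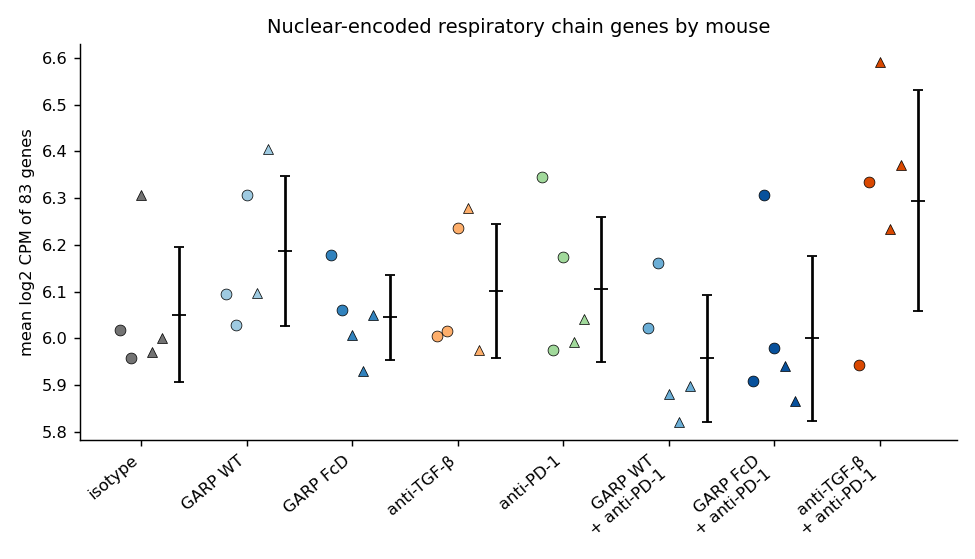
Mean log2 CPM of the 83 genes in each mouse (y axis) by treatment group (x axis), with the group mean ± SD; circles are libraries 41 to 60 and triangles 61 to 80. The anti-TGF-β combination group has the highest mean, 6.29, with mouse 53 at 5.94 and mouse 62 at 6.59, and the isotype group has 6.05.

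The question was how each mAb, alone or combined, left these genes relative to isotype and to its partner mAbs. Summed over these nuclear genes, the anti-TGF-β combination group carried the most mRNA and the WT combination group the least. The summed level of all 85 genes was 12453 ± 1763 CPM (SD, n = 5) in the former, 9868 ± 989 in the latter and 10789 ± 1106 in the isotype group. It was 10011 ± 1300 CPM with the FcD combination, 11681 ± 1333 with GARP WT, 10825 ± 601 with GARP FcD, 11047 ± 1213 with anti-TGF-β and 11049 ± 1006 with anti-PD-1. The ranges over mice overlapped between all these groups. Mitochondrially encoded subunits had their lowest group mean with the anti-TGF-β combination, at 13343 ± 3691 CPM, against 16809 ± 3356 in the isotype group.

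With the anti-TGF-β combination, 46 of the 83 genes were higher than in isotype tumors at an unadjusted p under 0.05 and none was lower, whereas of all 14760 genes tested 8.49% were higher and 11.6% lower. The median log2 fold change of the 83 was 0.29, and 76 were above 0, against a median of 0.02 over all genes. No member passed adjustment in this comparison: the smallest adjusted p was 0.108 (edgeR's quasi-likelihood test with Benjamini-Hochberg adjustment over all genes). Higher members numbered 22 of 36 in complex I, 2 of 4 in complex II, 6 of 8 in complex III, 7 of 11 in complex IV and 9 of 15 in complex V, with medians of 0.31, 0.19, 0.27, 0.29 and 0.28. None of the 6 tissue-restricted isoforms was among them. Short transcripts outside the members moved the same way: 21.9% of other genes of at most 1000 bases of exon and 23% of those above that up to 2000 were higher (medians 0.26 and 0.23). With a contrast of short against long other genes as a covariate (the length covariate, added after seeing the data), 4 members were higher, and their median was 0.04.

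Single mice moved the count: without mouse 62, 18 members were higher (4.92% of all genes), and without mouse 53 there were 64 (13.1% of all genes), of which 44 passed adjustment (13.4% of all genes did). Without isotype mouse 63, 23 passed adjustment (4.88% of all genes did). The members' mean was higher by 0.15 (log2) within libraries 41 to 60 and by 0.31 within 61 to 80.

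In complex I, Ndufv2, the flavoprotein-side core subunit that holds an iron-sulfur cluster, measured 90.9, 99.1, 119, 96.6 and 99.5 CPM in isotype mice 46, 51, 63, 74 and 78. It measured 97.5, 149, 166, 124 and 145 CPM in anti-TGF-β combination mice 53, 57, 62, 66 and 68. Mouse 53 lay among the isotype mice and the other 4 above all of them, a log2 fold change of 0.43 (SE 0.11, edgeR adjusted p = 0.108). Ndufc1, a small accessory subunit of the membrane arm, measured 26.0, 25.6, 32.0, 26.0 and 24.7 CPM in the isotype mice against 26.1, 40.4, 49.5, 36.1 and 42.9. Again only mouse 53 overlapped, and the log2 fold change was 0.54 (SE 0.14, edgeR adjusted p = 0.108). Ndufa5, an accessory subunit of the peripheral arm, measured 35.4, 38.5, 43.2, 33.1 and 33.6 against 35.8, 65.0, 75.4, 45.9 and 64.2 CPM. Mouse 53 was again the only overlap, and the log2 fold change of 0.64 was the largest of complexes I to V (SE 0.19, edgeR adjusted p = 0.127). Not every subunit took part: Ndufs1, the largest subunit and the carrier of several iron-sulfur clusters, had a log2 fold change of -0.06, with 106 to 117 CPM in the treated mice against 114 to 124 in isotype mice.

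In complex II the subunits differed. Sdha, which binds FAD and oxidises succinate, measured 206, 203, 202, 206 and 195 CPM in isotype mice and 205, 197, 195, 204 and 199 CPM with the anti-TGF-β combination, fully overlapping ranges (log2 fold change -0.02, SE 0.05, unadjusted p = 0.693). Sdhd measured 116, 107, 134, 112 and 117 against 125, 141, 157, 135 and 136 CPM. All treated mice except mouse 53 lay above every isotype mouse, and the log2 fold change was 0.24 (SE 0.07, unadjusted p = 0.00184). Sdhb was also higher (0.23, SE 0.09, unadjusted p = 0.0127), and Sdhc had 0.16 (SE 0.08, unadjusted p = 0.0522).

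In complexes III to V, Uqcrh, the hinge protein at cytochrome c1, had a log2 fold change of 0.45 (SE 0.16), Cox7c, a small structural subunit of complex IV, 0.40, and Atp5e, the smallest subunit of the ATP synthase stalk, 0.46 (SE 0.16), all at an unadjusted p under 0.05. Cox6a1 measured 200, 190, 268, 210 and 204 CPM in isotype mice against 188, 250, 331, 262 and 284, so mouse 63 overlapped the treated range and mouse 53 lay below every isotype mouse (log2 fold change 0.29, SE 0.12, unadjusted p = 0.0213). Cox4i1, whose protein binds ATP to slow the oxidase, had 0.25 (SE 0.15, unadjusted p = 0.0899). In ATP synthase, Atp5a1 and the catalytic subunit Atp5b had -0.02 (SE 0.06) and 0.04 (SE 0.11), each at an unadjusted p above 0.05.

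**Figure D2:**
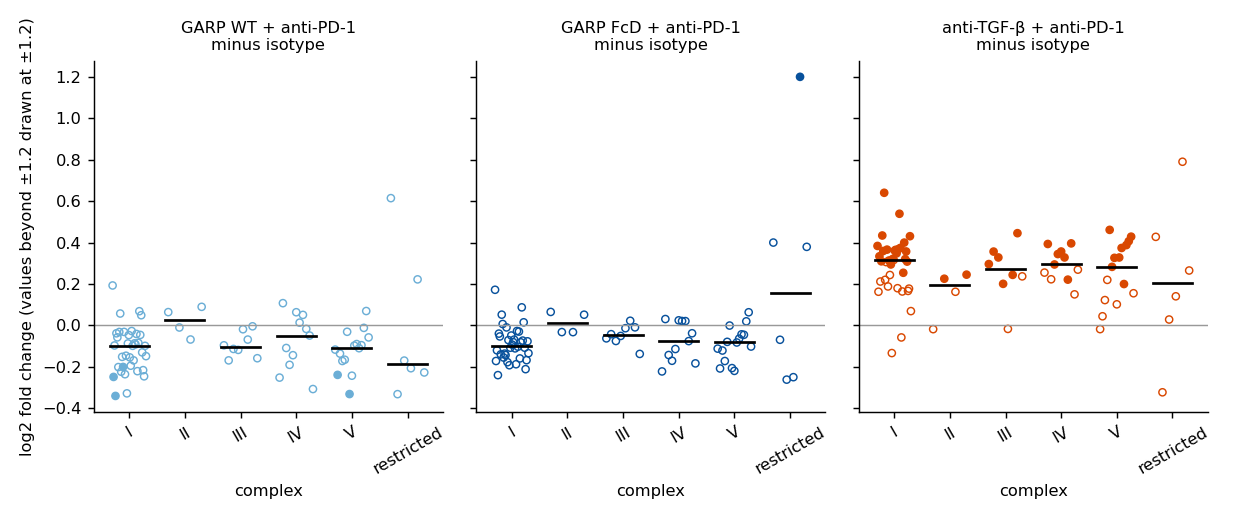
Log2 fold change of each of the 83 genes (y axis) by complex (x axis) in comparisons with isotype; filled points have an unadjusted p under 0.05, bars are medians and values beyond the axis limits are drawn at the limit. Complexes I to V sit above 0 with the anti-TGF-β combination, with medians from 0.19 to 0.31.

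Against each of its partners the same combination also stood higher, in comparisons that share its 5 mice with the one against isotype. Against anti-PD-1 alone 36 of 83 members were higher and 0 lower at an unadjusted p under 0.05 (background 7% and 10.1%), with a median of 0.24. Uqcrc1, a core protein of complex III, measured 164, 139, 144, 141 and 144 CPM in anti-PD-1 mice 47, 52, 54, 67 and 76 and 147, 169, 206, 180 and 189 in the combination mice. Mice 53 and 47 overlapped the other group, and the log2 fold change was 0.28 (SE 0.08, edgeR adjusted p = 0.159). Ndufs7, a core subunit that passes electrons on to ubiquinone, had 0.34 (SE 0.11, edgeR adjusted p = 0.176). Against anti-TGF-β alone 30 members were higher and 1 lower (background 3.96% and 5.88%), with a median of 0.22. Uqcrh and Cox7a2 stood at 0.45 and 0.30, each with an edgeR adjusted p of 0.5, and the lower member was Ndufs1 at -0.14 (unadjusted p = 0.0464). With the length covariate 2 members were higher and 3 lower against anti-PD-1 (6.75% and 7.49% of all genes, median 0.0022), and 1 was higher against anti-TGF-β (1.22% of all genes, median 0.0344).

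Single mice weighed on both counts. Against anti-PD-1, 7 members were higher without mouse 62 (3.97% of all genes) and 58 without mouse 53 (11.8%), of which 29 passed adjustment, as did 11.6% of all genes. There were 17 without mouse 68, 16 without anti-PD-1 mouse 52 or 67 and 22 without mouse 76, where 4.06% to 7.34% of all genes were higher. Against anti-TGF-β, 2 were higher without mouse 62 (1.43% of all genes) and 58 without mouse 53 (10.3%). There were 18 without mouse 57, 15 without anti-TGF-β mouse 43, and 12 without mouse 68 or without anti-TGF-β mouse 48 or 79, where 1.92% to 4.88% of all genes were higher. Within libraries 41 to 60 the members' mean differed by -0.03 (log2) against anti-PD-1 and 0.05 against anti-TGF-β, and within 61 to 80 by 0.38 and 0.27.

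With the WT combination 5 of 83 members (6.02%) were lower than in isotype tumors at an unadjusted p under 0.05, a share no larger than that of all genes (background 7.47% lower), and 0 were higher (background 13.2%). No member passed adjustment, the median of the members was -0.10, and 69 were below 0. With the length covariate 20 members were lower, against 12.2% of all genes. Ndufa12, an accessory subunit of the peripheral arm of complex I, measured 72.9, 63.2, 70.1, 71.4 and 51.9 CPM in mice 45, 55, 64, 69 and 77, and 85.4, 75.8, 94.3, 80.4 and 81.3 in isotype mice. All 5 treated mice lay below all isotype mice, with a log2 fold change of -0.34 (SE 0.13, edgeR adjusted p = 0.164). Atp5g1, which codes for the c subunit of the proton-driven ring, likewise did not overlap: 73.8, 68.8, 71.7, 68.2 and 53.9 CPM against 79.5, 79.6, 99.8, 87.1 and 77.2 (log2 fold change -0.33, SE 0.14, edgeR adjusted p = 0.186). Ndufa10, an accessory subunit of the membrane arm, measured 121, 98.6, 104, 112 and 96.9 CPM against 131, 113, 146, 120 and 123, with mouse 45 inside the isotype range (-0.25, SE 0.10, edgeR adjusted p = 0.171). The remaining ones were Atp5b at -0.24 and the accessory subunit Ndufa9 at -0.20. The count was 9 without isotype mouse 46, 12 without mouse 51 and 2 without mouse 63, and 10 without treated mouse 55 and 2 without mouse 77, where 3.04% to 10.8% of all genes were lower. The members' mean differed by 0.10 (log2) within libraries 41 to 60 and by -0.23 within 61 to 80.

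The distance of this combination was larger from GARP WT alone. There 35 of 83 members were lower (background 13%) and 0 higher (background 16.6%) at an unadjusted p under 0.05, with a median of -0.24 and 76 members below 0, and the smallest adjusted p was 0.0963 (edgeR's quasi-likelihood test with Benjamini-Hochberg adjustment). The lower members were 17 in complex I, 4 in complex III, 5 in complex IV, 7 in complex V and 2 isoforms, with none in complex II. Ndufa12 measured 78.5, 77.0, 96.4, 91.5 and 111 CPM in GARP WT mice 42, 49, 56, 65 and 73, all above the combination mice (log2 fold change -0.46, SE 0.13). Atp5g1 measured 80.2, 80.1, 97.4, 92.4 and 122 CPM there, again with no overlap (-0.49, SE 0.14), and Ndufa10 had -0.35 (SE 0.10); these 3 share the smallest adjusted p. With the length covariate 19 were lower (6.7% of all genes) and the median was -0.0680. Leukocyte genes were higher for 4 of 14 and proliferation genes lower for 4 of 14 (28.6% each) in this comparison, and their part in it was not tested. Without mouse 73 of the single-mAb group 16 members were lower (7.12% of all genes), and without mouse 55 of the combination 50 were, against 16.7% of all genes, with 10 of them past adjustment, a share near that of all genes (11.4%). The difference was -0.05 within libraries 41 to 60 and -0.38 within 61 to 80.

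Against anti-PD-1 alone 10 members (12%) were lower (background 5.99%) and 0 higher (background 11.2%), with a median of -0.16. Ndufa10 (-0.28), Ndufa12 (-0.36) and Atp5g1 (-0.37) had the smallest p-values, with edgeR adjusted p of 0.231 each, and others were Ndufa4l2, Atp5g2, Cox4i1, Ndufa4, Ndufv1 and Cox7b2. The count was 3 without anti-PD-1 mouse 47, 18 without mouse 52, 6 without mouse 54, 24 without combination mouse 55, 5 without mouse 64 and 4 without mouse 77, where 2.95% to 10.3% of all genes were lower. In this comparison 11 of 12 skeletal muscle genes were lower (median -2.34) and 8 of 14 leukocyte genes higher (median 0.78) at an unadjusted p under 0.05. The muscle list's mean was 3.97 log2 CPM in anti-PD-1 mouse 52 and -0.80 to 0.15 in the other 4 anti-PD-1 mice. The part of these cells in the counts was not tested. Differences of the members' mean were -0.07 and -0.15 (log2) within the library ranges 41 to 60 and 61 to 80.

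With the FcD combination, 0 of 83 members were lower than in isotype tumors (background 5.85%) and 1 was higher (background 10.7%), Cox8b, which is taken up with the isoforms. The median was -0.08. Mouse 50 stood above the rest of its group, and without it 20 members were lower than in isotype tumors, as were 15% of all genes. Against anti-PD-1 alone 5 were lower (background 4.27%) and 0 higher (background 6.46%): Atp5g2 (-0.28), which codes for the same c subunit as Atp5g1, Cox7b2 (-0.62), Ndufa10 (-0.20), Cox4i1 and Ndufa12, with edgeR adjusted p of 0.458 for the first 3. Against GARP FcD alone 4 were lower (background 7.91%), namely Ndufa12 (-0.27), Ndufa10 (-0.21), Ndufv1 (-0.25) and Atp5b, and 1 was higher (background 13%), Cox8b. Without mouse 50 these lower counts were 36 and 23 (13.8% and 17% of all genes), and without mouse 71 both were 0. Leaving out any other mouse gave 0 to 10 and 0 to 6 lower, where 2.06% to 8.25% and 4.47% to 7.87% of all genes were lower. With the length covariate 8 members were lower than in isotype, 16 than with anti-PD-1 and 13 than with GARP FcD (9.65%, 7.19% and 10.9% of all genes). Against GARP FcD all 11 adipocyte genes (median 3.61), 6 of 14 leukocyte genes and 4 of 12 fibroblast and vessel genes were higher, and their part in the counts was not tested. Within libraries 41 to 60 and 61 to 80 the members' mean differed from isotype by 0.08 and -0.19.

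The combinations were compared with each other after the values above had been seen. Respiratory chain genes were higher with the anti-TGF-β combination than with either GARP combination, and here many passed adjustment, though none did with the length covariate. Against the WT combination 63 of 83 members were higher (background 16.5%) and 0 lower (background 20.1%) at an unadjusted p under 0.05. At an adjusted p under 0.05 (edgeR's quasi-likelihood test with Benjamini-Hochberg adjustment) 49 were higher (background 8.46%) and 0 lower (background 9.73%). Against the FcD combination the counts were 64 higher (background 15.4%) and 0 lower (background 15.8%), and after adjustment 31 (background 3.77%) and 0 (background 2.69%). The medians were 0.37 and 0.36, and with the length covariate 0.12 and 0.08. Against the FcD combination 7 of 11 adipocyte genes were lower (63.6%, median -2.44) and 0 higher, and against the WT combination 0 and 0 (median -0.20). The part of fat in these counts was not tested.

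Of the 49, complex I gave 25 of 36, among them the core subunits Ndufv1, Ndufv2, Ndufs3, Ndufs7 and Ndufs8. Accessory ones were Ndufa3, Ndufa5, Ndufa7, Ndufa8, Ndufa9, Ndufa10, Ndufa11, Ndufa12, Ndufab1, Ndufb3, Ndufb5, Ndufb6, Ndufb7, Ndufb9, Ndufb10, Ndufb11, Ndufc1, Ndufc2 and Ndufs5. Complex II gave 1 (Sdhc) and complex III 6 of 8: Uqcr10, Uqcr11, Uqcrb, Uqcrc1, Uqcrfs1, which is the Rieske iron-sulfur protein, and Uqcrh. Complex IV gave 7 of 11 (Cox4i1, Cox5b, Cox6a1, Cox6b1, Cox7a2, Cox7c and Ndufa4) and complex V 10 of 15 (Atp5d, Atp5e, Atp5f1, Atp5g1, Atp5g2, Atp5g3, Atp5h, Atp5j, Atp5j2 and Atp5k). The 31 against the FcD combination were 20 of complex I (Ndufa3, Ndufa5, Ndufa8, Ndufa9, Ndufa10, Ndufa11, Ndufa12, Ndufab1, Ndufb3, Ndufb5, Ndufb6, Ndufb7, Ndufb9, Ndufb10, Ndufc1, Ndufc2, Ndufs5, Ndufs7, Ndufs8 and Ndufv2), Uqcrb of complex III, 4 of complex IV (Cox4i1, Cox6a1, Cox6b1 and Cox7c) and 6 of complex V (Atp5e, Atp5f1, Atp5g1, Atp5g3, Atp5h and Atp5j2). Sdha, Ndufs1, Uqcrc2, Atp5a1 and Cox8a were among those at an unadjusted p above 0.05 in both.

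Atp5g1 shows the spread behind these calls. It measured 74.8, 106, 125, 107 and 118 CPM in anti-TGF-β combination mice 53, 57, 62, 66 and 68, and 62.3, 98.0, 69.0, 63.2 and 74.5 in FcD combination mice 44, 50, 60, 71 and 80. All anti-TGF-β combination mice lay above all 5 WT combination mice, whose highest was 73.8, while mouse 53 alone lay below an FcD combination mouse, mouse 50. The log2 fold changes were 0.66 (SE 0.14, edgeR adjusted p = 0.0225) and 0.53 (SE 0.14, edgeR adjusted p = 0.0447). Ndufv2 measured 94.4, 107, 92.3, 88.4 and 89.7 CPM with the WT combination and 88.1, 117, 97.9, 87.6 and 88.4 with the FcD one, so only mouse 53 overlapped either group (0.53 and 0.51, SE 0.11 each). Ndufc1 had 0.63 and 0.57 (SE 0.14 each), with 26.7, 29.5, 23.6, 22.1 and 24.5 CPM in the WT combination.

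Both adjusted counts depended on the fit and on single mice. Fitting only the groups compared left 0 adjusted calls in either, and without the filter on low counts they were 25 and 0. Against the WT combination, 63 passed without mouse 53 (35.5% of all genes), 13 without mouse 57 (1.42%), 27 (7.95%) without WT combination mouse 64, and 0 without mouse 62 or 68 or without WT combination mouse 69. Against the FcD combination, 67 passed without mouse 50 (28.5% of all genes) and 65 without mouse 53 (30.8%), and 0 without any other of the 10 mice. The members' mean differed by 0.05 and 0.07 (log2) within libraries 41 to 60 and by 0.53 and 0.50 within 61 to 80. In the other 16 comparisons no member passed adjustment (background 0.000423% of tests, 1 gene in all).

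**Figure D3:**
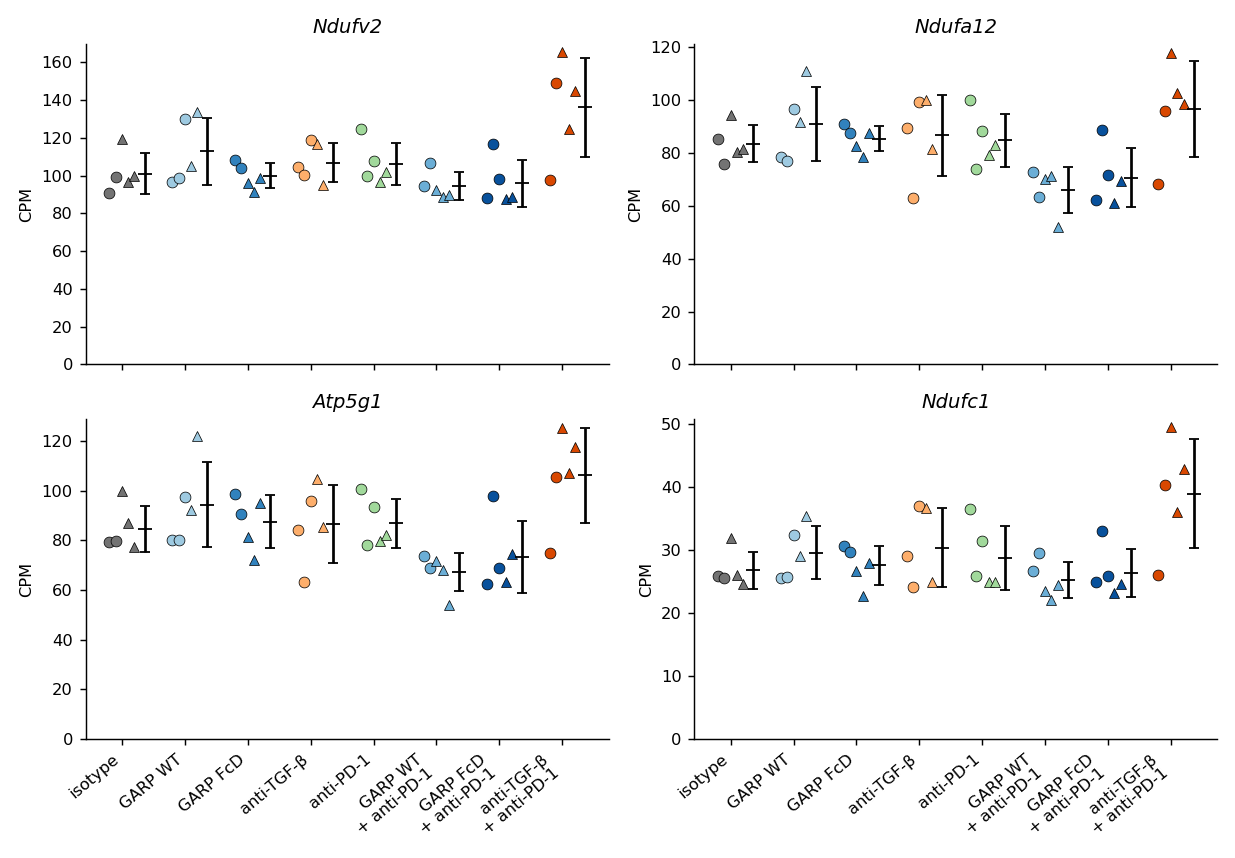
CPM of Ndufv2, Ndufa12, Atp5g1 and Ndufc1 (y axes) in each mouse by treatment group (x axes), with group mean ± SD; circles are libraries 41 to 60 and triangles 61 to 80. Mouse 53 is the lowest anti-TGF-β combination point in every panel, for example 97.5 CPM for Ndufv2, where the other 4 lie between 124 and 166.

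Single mAbs gave few calls against isotype, and the median was farthest from 0 with GARP WT. That group had 1 higher (background 0.583%), Ndufa4l2 at 0.84 (unadjusted p = 0.0386), and 1 lower (background 0.386%), the complex I accessory subunit Ndufb2 at -0.38 (unadjusted p = 0.0412). The median with that mAb was 0.14, with 78 of 83 members above 0, against 53.7% of all genes, and 17 members were higher without isotype mouse 63 (1.99% of all genes). The members' mean was higher by 0.16 (log2) within libraries 41 to 60 and by 0.16 within 61 to 80. With transcript length as a covariate, a fit described with the length results, that median was -0.0089. GARP FcD had 0 higher and 0 lower (background 0.264% and 0.21%), anti-TGF-β 0 and 0 (background 1.77% and 0.549%) and anti-PD-1 0 and 0 (background 0.603% and 0.352%), with medians of 0.01, 0.05 and 0.05. Within libraries 41 to 60 and 61 to 80 the members' mean differed by 0.13 and -0.10 for GARP FcD. The differences were 0.10 and 0.03 for anti-TGF-β, and 0.18 and -0.08 for anti-PD-1.

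Whether a mAb acted otherwise beside anti-PD-1 than alone was tested as an interaction. For GARP WT 21 members had a lower interaction (background 4.44%) and 0 a higher one (background 4.3%) at an unadjusted p under 0.05, with a median of -0.29 and a smallest adjusted p of 0.483 (edgeR's quasi-likelihood test with Benjamini-Hochberg adjustment). Ndufa4l2 (-1.83, SE 0.55), Ndufa10 (-0.38, SE 0.14) and Ndufa12 (-0.49, SE 0.18) led them. With the length covariate 13 were lower (2.22% of all genes) and the median was -0.10. Skeletal muscle genes had a lower interaction for 9 of 12 (75%, median -2.60), and all 11 adipocyte genes were below 0 (median -1.38) with 0 called, and their part was not tested. Leaving out mice gave from 6 (without anti-PD-1 mouse 47, or without GARP WT mouse 73, where 1.78% and 2.17% of all genes were lower) to 44 (without isotype mouse 63, 7.93%). It was 37 without combination mouse 55 (7.58%) and 10 to 13 (2.68% to 3.63%) without isotype mouse 46 or 51, GARP WT mouse 56 or combination mouse 64, 69 or 77. For FcD 1 was higher (background 2.45%) and 0 lower (background 2.05%; 12 without mouse 50 and 5 without mouse 63, where 6.95% and 2.87% of all genes were lower). For anti-TGF-β 0 were higher (background 0.752%) and 0 lower (background 1.55%), with a median of 0.19 and 14 higher without mouse 53 (3.73% of all genes). Within libraries 41 to 60 and 61 to 80 the interaction of the members' mean (log2) was -0.23 and -0.31 for GARP WT. It was -0.23 and -0.02 for FcD, and -0.12 and 0.35 for anti-TGF-β, where the sign turned. Across all 8 groups at once 47 members had an unadjusted p under 0.05 (56.6% of them, background 24.7%), and 0 an adjusted p under 0.05 (background 0.0271%). Ndufv2, Atp5g1 and Ndufa12 led, with adjusted p of 0.110, 0.119 and 0.123 in edgeR's quasi-likelihood test. The 47 became 18 without mouse 62, 31 without mouse 57 and 26 without mouse 68, and 38 passed adjustment without mouse 53, 24 without mouse 50 and 3 without mouse 48. The shares of all genes in these fits were not counted, so the changes cannot be told from a change over all genes.

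Among the isoforms, Cox8b varied most. It had 11, 4, 22, 45 and 1 counts in FcD combination mice 44, 50, 60, 71 and 80, or 0.793, 0.302, 1.76, 3.03 and 0.0664 CPM. Isotype mice 46, 51, 63, 74 and 78 had 10, 1, 1, 0 and 1 counts, and GARP FcD mice 41, 58, 61, 70 and 75 had 0, 1, 0, 0 and 1. The groups overlapped with isotype but only through mouse 80 with FcD alone, and the fitted log2 difference was 2.70 against isotype (SE 1.05, edgeR adjusted p = 0.246) and 5.03 against GARP FcD (SE 1.36, edgeR adjusted p = 0.122), values that rest on few counts and on the prior count. Cox8b passed the filter through mice 44, 47, 48, 53, 60 and 71, and without the 3 of these from the FcD combination it would not have passed, so the filter favoured this call. Without mouse 71 the call against isotype was lost.

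Cox8b followed adipocyte genes from mouse to mouse. Over 40 mice its log2 CPM and the mean of 11 adipocyte genes had Pearson's r = 0.90 (permutation p = 1e-05, the smallest that 100000 permutations can give, adjusted p = 0.00015 over 15 relations) and Spearman's rho = 0.80 (permutation p = 1e-05). Without the 2 mice farthest from the median of the list r was 0.85, and within libraries 41 to 60 and 61 to 80 it was 0.88 in each. All 11 adipocyte genes were higher in the FcD combination than in isotype at an unadjusted p under 0.05 (median 3.24, where 10.7% of all genes were higher), and the list's mean was highest in mouse 71 at 5.65 log2 CPM. With the list of fibroblast and vessel genes, which was added after the data had been seen, r was 0.65 (adjusted permutation p = 0.000225). Spearman's rho was lower there, at 0.38 (adjusted permutation p = 0.0442).

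Ndufa4l2 had r = 0.44 with adipocyte genes (adjusted permutation p = 0.0155, rho = 0.36), 0.53 and 0.25 within the library ranges, neither past adjustment there, and r = 0.49 with fibroblast and vessel genes (adjusted permutation p = 0.0081, rho = 0.44; 0.66 and 0.21 within the ranges). It measured 7.78, 3.25, 2.33, 4.56 and 4.01 CPM in GARP WT mice 42, 49, 56, 65 and 73 against 2.16, 2.76, 3.61, 1.73 and 1.94 in isotype mice, overlapping through GARP WT mice 49 and 56 and isotype mice 51 and 63. Cox6a2 had r = -0.41 with the fibroblast and vessel genes (adjusted permutation p = 0.0265, rho = -0.38; -0.51 and -0.27 within the ranges).

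None of the 5 isoforms examined here followed skeletal muscle genes by Pearson's r over 40 mice: Cox6a2 had -0.10, Cox7a1 -0.07, Cox8b 0.15, Cox4i2 0.19 and Ndufa4l2 0.24, with adjusted permutation p between 0.287 and 0.742, although rho was 0.41 for both Cox8b and Ndufa4l2 (adjusted permutation p = 0.0357 each). Without the 2 farthest mice Cox8b had r = 0.44 (adjusted permutation p = 0.0183), and Cox4i2 had r = 0.60 within libraries 61 to 80. Anti-PD-1 mouse 52 stood far above all others in the muscle list, at a mean of 3.97 log2 CPM.

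**Figure D4:**
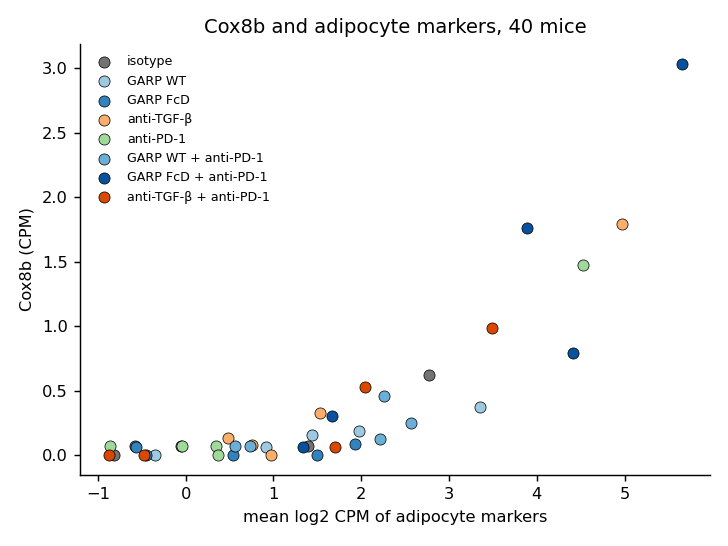
CPM of Cox8b (y axis) against the mean log2 CPM of 11 adipocyte genes (x axis), 1 point per mouse, colored by treatment group. The values are high in the same mice (r = 0.90 over 40 mice with Cox8b in log2 CPM), with mouse 71 of the FcD combination at the top right.

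Transcript length moved with the members' level. The 83 genes had a median exon length of 1587 bases, against 4440 for the other genes with a length (12680 of 14677, 86.4%). Among other genes, those of at most 1000 bases had a median log2 fold change of 0.26 with the anti-TGF-β combination against isotype, those above that up to 2000 bases 0.23, those above 2000 up to 5000 bases 0.07 and those over 5000 bases -0.10. Members of the same classes (22, 30, 27 and 4 genes) had 0.34, 0.26, 0.20 and 0.13. The 4 in the longest class ran from -0.13 to 0.43. Lengths count all annotated exons of a gene merged, so a class need not match the length of the transcript made. For the WT combination against isotype the other genes had -0.01, -0.06, -0.03 and 0.07 and the members -0.09, -0.13, -0.10 and -0.04. From mouse to mouse, the members' mean log2 CPM and the contrast of short and long other genes had r = 0.94 and rho = 0.90 over 40 mice. It was 0.92 without the 2 farthest mice, and 0.91 and 0.96 within the library ranges. RNA integrity values were not used here, and the part of length in the results was not tested beyond the fit that follows.

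With that contrast as a covariate, the members higher with the anti-TGF-β combination than with isotype went from 46 to 4 (8.93% of all genes) and their median from 0.29 to 0.04. Those lower with the WT combination went from 5 to 20 (12.2% of all genes), and from 10 to 33 (9.63% of all genes) against anti-PD-1. In the direct comparisons 29 (4.49% of all genes) were higher than in the WT combination and 8 (3.07% of all genes) than in the FcD one, with 0 past adjustment in either by edgeR's quasi-likelihood test.

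**Figure D5:**
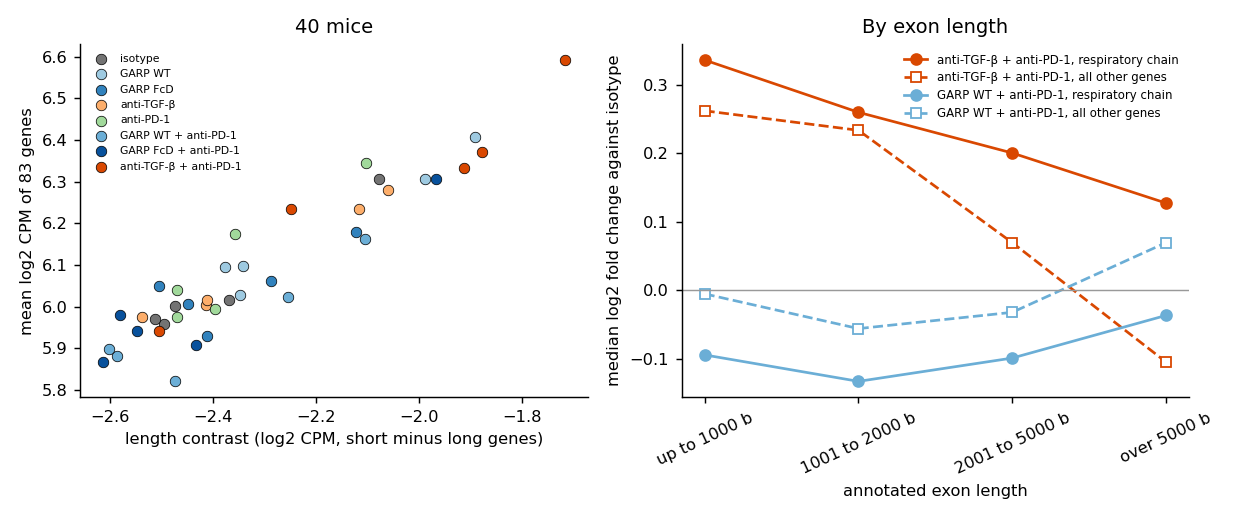
Left, the members' mean log2 CPM (y axis) against the log2 contrast of short and long other genes (x axis), 1 point per mouse. Right, median log2 fold change (y axis) by exon length class (x axis) for members and other genes; for the anti-TGF-β combination against isotype the other genes fall from 0.26 in the shortest class to -0.10 in the longest.

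The other genes of the pathway were counted in the same way. Of 44 tested assembly factors, 10 were higher (22.7%, against 8.49% of all genes) and 2 lower with the anti-TGF-β combination against isotype at an unadjusted p under 0.05 (median 0.11, 38 above 0), while of the 10 mitochondrially encoded subunits tested 0 were higher and 0 lower, with a median of -0.30 and 9 below 0. Their summed level was 16809 ± 3356 CPM in isotype mice against 13343 ± 3691 in anti-TGF-β combination mice (SD, n = 5). The library kit selects polyadenylated RNA, which bears on mitochondrial transcripts. Of 13 tricarboxylic acid cycle genes 1 was higher and 0 lower, of 16 electron carriers and regulators 3 and 2, and of 22 glycolysis and hypoxia genes 0 and 4 (18.2% lower, median -0.20), where 11.6% of all genes were lower.

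In the direct comparison with the WT combination 19 of 44 assembly factors were higher (43.2%) and 1 lower, and 8 of 22 glycolysis and hypoxia genes were lower (36.4%) with 0 higher, where 16.5% of all genes were higher and 20.1% lower. Past adjustment by edgeR's quasi-likelihood test (8.46% of all genes higher and 9.73% lower) were the assembly factors Sdhaf1 (0.60), Coa3 (0.54), Cox19 (0.44), Cox20 (0.66), Ndufaf1 (0.34), Ndufaf2 (0.70), Ndufaf5 (0.41), Ndufaf7 (0.31), Uqcc2 (0.45), Uqcc3 (0.52) and Atpaf2 (0.30), all higher. The mitochondrial transcription factor Tfb1m (0.55), the ATP synthase inhibitor Atpif1 (0.49) and the succinyl-CoA ligase subunits Sucla2 (0.25) and Suclg1 (0.28) were higher too. Lower were the transcription factors Yy1 (-0.23) and Gabpa (-0.44), the hexokinases Hk1 (-0.35) and Hk2 (-0.65), Pgam1 (-0.35), the pyruvate dehydrogenase kinase Pdk1 (-0.48), Vegfa (-0.53) and Mki67 (-0.40). Mki67 does not stand for the proliferation list, whose mean ran from 7.39 to 7.46 log2 CPM in anti-TGF-β combination mice. In WT combination mice that mean ran from 6.97 to 7.55. With the length covariate no gene passed adjustment in this comparison, and none did without mouse 62, 68 or 69. Against the FcD combination Coa3 (0.50), Ndufaf5 (0.44) and the cyclin Ccna2 (0.38) passed, and with the length covariate no gene did. The assembly factor Pet117 had 0 counts in all 40 mice.

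Markers of cells in the fragments moved as well. Against isotype, leukocyte genes were higher at an unadjusted p under 0.05 for 5 of 14 (35.7%) with the anti-TGF-β combination and 6 of 14 (42.9%) with the WT combination, fibroblast and vessel genes for 0 and 3 of 12 (25%), and adipocyte genes for 0 and 0 of 11, where 8.49% and 13.2% of all genes were higher. Of 14 proliferation genes 0 were higher and 2 lower (14.3%) in each, where 11.6% and 7.47% of all genes were lower. The mean of the leukocyte list ran from 3.25 to 4.18 log2 CPM in isotype mice, from 3.70 to 5.05 with the anti-TGF-β combination and from 3.43 to 5.59 with the WT combination. Skeletal muscle genes stood at 0 higher and 0 lower of 12 with the anti-TGF-β combination against isotype. Against anti-PD-1 alone, 9 of the 12 (75%) were lower with the anti-TGF-β combination (median -2.22, where 10.1% of all genes were lower) and 9 with the FcD combination (median -2.35, where 4.27% were), and anti-PD-1 alone had 11 of 12 higher than isotype (median 2.29). The list's mean was 3.97 log2 CPM in anti-PD-1 mouse 52, -0.80 to 0.15 in the other 4 anti-PD-1 mice and -0.85 to -0.26 in isotype mice. The part of these cells in the respiratory chain results was not tested.

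Some members share sequence with other genes, so their counts are less certain. The share of 50-base stretches also found in transcripts of other genes was 38.3% for Atp5g2, 25.4% for Uqcrb, 22.1% for Cox7c, 21.7% for Ndufs5, 19.9% for Atp5h, 18.3% for Ndufb4, 17.7% for Ndufa12, 16.1% for Ndufs3, 15.6% for Ndufb9, 14% for Atp5o, 13.8% for Cox7a2l, 11.9% for Cox5b and 10.2% for Atp5g1.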

How the data were processed

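Bulk RNA of 40 CT26 tumors was sequenced from poly(A)-selected, stranded libraries. The authors' processing notes name STAR 2.5.3a, SAMtools 1.6, HTSeq 0.9.1 and GRCm38, and the annotation release and strand setting are not given in the sources used here. The authors deposited raw counts per gene, 54087 rows by 40 mice, and no other values were used. Counts were filtered by edgeR's filterByExpr, scaled by TMM and fitted in 1 quasi-likelihood model of 8 groups (edgeR 4.0.16, limma 3.58.1, R 4.3.3), with Benjamini-Hochberg adjustment over 14760 genes and a prior count of 2 for log2 CPM. The fit was tested on simulated data. Sequencing depth was 11931730 to 20680548 counts per mouse. Correlations used 100000 permutations. The 80 replicate pairs differed beyond sampling noise (lowest chi-square per degree of freedom 5.44), so each mouse counted once.

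The members and lists were chosen with earlier results of these data known. Genes were named by a rule: isoforms and their partners, complex II, the highest and lowest per kilobase of each complex, the 3 smallest p-values each way per comparison, all adjusted calls, the first 3 of the test over 8 groups, and in other lists adjusted calls and markers at 0. Other named members were chosen after their values were seen. Some results that the rule names are not reported here. Alternatives were DESeq2 1.42.0 (size factors or Wald test), no filter, a library-range term, a length term, only the groups compared, and each mouse left out. The labels give no batch. Figures were drawn with matplotlib 3.10.9.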

Additional observations from a re-analysis of the deposited data

Results flagged for a closer look

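A mouse stood apart from the other 4 of its group in 17 of 96 groups examined, and the flags fell mainly on a pair of mice. Chance would flag about 1 in 20 groups if they were independent. The complexes share the same mice and were high together, so the count is not set against chance. Isotype mouse 63 was the highest of its group in summed CPM of complex I (3003, the others 2286 to 2411), complex II (625, the others 533 to 557), complex III (1086, the others 833 to 903) and complex IV (2472, the others 1786 to 1910), and in Cox7a1 (3.12 CPM, the others 1.49 to 1.85). FcD combination mouse 50 was the highest of its group in complex I (2961, the others 2137 to 2240), complex III (1078, the others 804 to 857), complex IV (2381, the others 1668 to 1813) and complex V (4893, the others 3780 to 4100). The contrast of short and long genes outside the members was also the highest of its group in mouse 63 (-2.08, group median -2.48) and in mouse 50 (-1.97, group median -2.55), and its part in these values was not tested.

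The other flags were on isoforms of low level. Cox8b stood apart at 0.618 CPM in isotype mouse 46 (the others 0 to 0.0747), at 1.48 in anti-PD-1 mouse 47 (the others 0 to 0.0721) and at 1.79 in anti-TGF-β mouse 48 (the others 0 to 0.326). Each of these 3 mice also had the highest mean of the adipocyte list in its group (2.77, 4.52 and 4.97 log2 CPM). Ndufa4l2 was 9.38 CPM in anti-PD-1 mouse 47 (the others 1.59 to 3.69), and Cox4i2 was 3.86 CPM in anti-PD-1 mouse 52 (the others 1.14 to 1.77), the mouse with the highest skeletal muscle list. Cox6a2 was 6.01 CPM in GARP WT mouse 73 (the others 3.21 to 4.02) and 6.00 in anti-TGF-β mouse 59 (the others 1.71 to 2.81). Cox6b2 was 0.516 CPM in anti-PD-1 mouse 67 (the others 0.0690 to 0.144).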

How the results depend on the processing

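Counts below are members (of 83), at an unadjusted p under 0.05 unless called adjusted. Shares of all genes were not counted for fits with DESeq2, without the filter or with only the groups compared. The same holds for the test over 8 groups in any refit, so none of these counts can be set against a background. Medians changed sign, all within the spread between mice, only for single mAbs against isotype: with the length term for GARP WT (0.14 to -0.0089) and GARP FcD (0.0066 to -0.0115), without mouse 46, 51, 74, 78 or 41 for GARP FcD (-0.0363 to -0.0069), without mouse 47 for anti-PD-1 (-0.0104) and without mouse 72 for anti-TGF-β (-0.0055). DESeq2's size factors changed only the count lower in the FcD combination against GARP FcD, from 4 to 2. Without the filter, anti-PD-1 had 1 higher, the anti-TGF-β combination 0 lower against anti-TGF-β, and the adjusted counts of the direct comparisons were 25 (WT) and 0 (FcD). A library-range term gave 0 higher for GARP WT (0.528% of all genes). For the FcD combination it gave 1 higher against anti-PD-1 (6.8%), and 2 higher and 2 lower against GARP FcD (13% and 7.52%). The anti-TGF-β combination had 0 lower against anti-TGF-β (5.82%) and 1 lower in the direct FcD comparison (16.1%). With DESeq2's Wald test the FcD combination had 2 lower against isotype. Its adjusted counts were 3 for the anti-TGF-β combination against isotype, 5 for the WT combination against GARP WT, 1 for the FcD combination against GARP FcD and 48 in the direct FcD comparison, and 1 member was lower in each direct comparison. Fitting only the groups compared gave 2 higher and 0 lower for GARP WT, 3 lower for the WT combination, 0 higher and 2 lower for the FcD combination, 1 higher and 3 lower for it against anti-PD-1, and 7 lower against GARP FcD. It gave 20 higher for the anti-TGF-β combination against anti-PD-1, 12 higher and 0 lower against anti-TGF-β, 1 lower in the FcD interaction and adjusted counts of 0 and 0 in the direct comparisons.

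The length term, chosen after seeing the data, gave 1 lower for anti-TGF-β, 1 higher and 20 lower for the WT combination, 33 lower against anti-PD-1 and 19 lower against GARP WT (median -0.0680), 8 lower for the FcD combination, 16 lower against anti-PD-1, and 3 higher and 13 lower against GARP FcD (9.65%, 7.19% and 10.9% of all genes lower). For the anti-TGF-β combination it gave 4 higher and 1 lower (median 0.0432), 2 and 3 against anti-PD-1 (median 0.0022) and 1 higher against anti-TGF-β (median 0.0344). Interactions had 13 lower for WT (median -0.10), 0 higher and 5 lower for FcD, and a median of 0.0014 for anti-TGF-β. Direct comparisons had 29 and 8 higher (medians 0.12 and 0.0814) and 0 adjusted in either, and the test over 8 groups had 17.

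Leaving out mice gave, for the anti-TGF-β combination, 18 to 64 higher and 0 to 44 adjusted against isotype (medians 0.20 to 0.39), 7 to 58 higher, 0 to 1 lower and 0 to 29 adjusted against anti-PD-1, and 2 to 58 higher and 0 to 1 lower against anti-TGF-β. Of all genes, 4.92% to 13.1%, 3.97% to 11.8% and 1.43% to 10.3% were higher in these fits, in the same order. Up to 13.4% and 11.6% of all genes passed adjustment against isotype and anti-PD-1. For the WT combination leaving out mice gave 0 to 1 higher and 2 to 12 lower against isotype, 0 to 1 and 3 to 24 against anti-PD-1, and 16 to 50 lower and 0 to 10 adjusted against GARP WT. Lower shares of all genes were 3.04% to 10.8%, 2.95% to 10.3% and 7.12% to 16.7%, and up to 11.4% passed adjustment against GARP WT. For the FcD combination leaving out mice gave 0 to 2 higher and 0 to 20 lower against isotype, 0 to 1 and 0 to 36 against anti-PD-1, and 1 to 2, 0 to 23 and 0 to 1 adjusted against GARP FcD. There 2.53% to 15%, 1.97% to 13.8% and 4.38% to 17% of all genes were lower, and up to 4.81% passed adjustment against GARP FcD. Direct comparisons had 0 to 63 (WT) and 0 to 67 (FcD) adjusted, 0 to 1 lower in the latter. Adjusted shares of all genes ran from 0 to 35.5% (WT) and from 0 to 30.8% (FcD). Interactions had 6 to 44 lower for WT, 0 to 1 higher and 0 to 12 lower for FcD and 0 to 14 higher for anti-TGF-β. Over all genes, 1.78% to 8.11% were lower for WT, 1.14% to 6.95% lower for FcD and 0.308% to 3.73% higher for anti-TGF-β. Single mAbs had 0 to 17 higher and 0 to 1 lower (WT), 0 to 1 lower (FcD), 0 to 2 higher and 0 to 1 lower (anti-TGF-β) and 0 to 2 higher (anti-PD-1), and the test over 8 groups 18 to 63, with 0 to 38 adjusted. With GARP WT, anti-TGF-β and anti-PD-1, 0.394% to 1.99%, 0.511% to 3.16% and 0.422% to 1.12% of all genes were higher. Correlations that crossed the threshold were Cox8b with muscle without 2 mice (0.44), Ndufa4l2 with adipocyte genes (0.53 and 0.25 within the library ranges), Cox6a2 with fibroblast and vessel genes (-0.51 and -0.27), and in libraries 61 to 80 Cox4i2 with muscle (0.60) and Ndufa4l2 with fibroblast and vessel genes (0.21).

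No paired analysis was possible because replicate numbers were given in accession order only. With 5 mice a group and an SD of 0.160 between replicate mice in the members' mean log2 CPM, the smaller differences lie within the spread between mice, and the causes of the changes above were not tested. At these depths Cox8b and Cox6b2 rest on at most 45 and 10 counts.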
